A study of Drosophila melanogaster with 9 samples.

Results

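The 9 phagocytic and scavenger receptor genes eater, drpr, Sr-CI, Sr-CII, Sr-CIII, Sr-CIV, crq, pes and emp, were followed in the hemocytes (blood cells) of Drosophila melanogaster larvae. They were chosen by symbol, and all 9 were found among the 17874 genes of the count table. Total RNA of hemocytes bled from 300 third-instar larvae per library was sequenced after ribosomal RNA depletion, with experiments at 25 °C. Larvae labelled UAS-BCR-ABLT315I (T315I), larvae labelled UAS-BCR-ABLP210 (p210) and larvae of the W1118 control strain gave 3 biological replicates each. BCR-ABL p210 is the human fusion kinase of chronic myeloid leukaemia, and T315I is its form with a kinase-domain substitution that blocks imatinib. UAS transgenes need a Gal4 driver; the driver, and whether the control larvae carried one, are not given in the labels, so strain background and transgene cannot be told apart. Transcripts of the human transgene were not analysed here.

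Plasmatocytes, the main hemocytes of the larva, clear bacteria and dying cells through receptors of several families. Eater and Draper carry repeats of the EGF-like type. Eater binds bacteria and helps hemocytes attach, while Draper, the fly relative of the worm engulfment receptor CED-1, recognises apoptotic cells and signals through the adaptor Ced-6 and the kinase Shark. Of the class C scavenger receptors the best studied member, Sr-CI, binds bacteria and polyanionic ligands. Croquemort (crq), Peste (pes) and Emp belong to class B, the CD36 family. Croquemort acts in clearance of apoptotic cells and of some bacteria, Peste in the uptake of intracellular bacteria, and Emp was first described in epithelia.

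Libraries held 13.86 to 15.72 M counts in T315I, 14.48 to 18.16 M in p210 and 5.40 to 9.84 M in the control. Levels are given as CPM, counts per M with TMM-scaled library totals. The upper limit that a count of 0 allows, set at 3 counts, was 0.165 to 0.556 CPM over the libraries and covers counting error only. The hemocyte label was checked against 10 plasmatocyte markers, whose summed level was 35600 to 46500 CPM in T315I, 31000 to 48600 CPM in p210 and 28500 to 32300 CPM in the control. Hml and Ppn were the most abundant of these markers. Ppn averaged 12800 CPM in T315I, 14200 CPM in p210 and 4380 CPM in the control, and Hml 12900, 12900 and 11600 CPM. Markers of fat body and muscle were highest in the control. Fat body markers summed to 7950 to 12100 CPM in T315I, 4250 to 6130 CPM in p210 and 39000 to 98300 CPM in the control, and muscle markers to 367 to 432, 324 to 366 and 1310 to 2920 CPM. Control replicate 3 stood apart from the other control libraries, with lamellocyte markers (genes of the flat, encapsulating hemocytes) at 8490 CPM against 3590 and 3380 CPM in control replicates 1 and 2. They summed to 16800 to 19900 CPM in T315I and 15700 to 21100 CPM in p210. Control replicate 3 also had the lowest fat body, muscle and cuticle sums of the control (39000, 1310 and 61.5 CPM). Its salivary gland sum was the highest (3730 CPM against 22.9 and 157 CPM in control replicates 1 and 2). Genes inside the span of another gene were at 0, also where their exons touch no other exon (1215 of 1215 protein-coding genes), as were the lamellocyte and crystal cell markers atilla and PPO1. For genes placed in this way, a count of 0 says nothing about expression. Counts of the receptors may include reads from introns.

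The first question was which receptors differed between hemocytes with a BCR-ABL transgene and those of the control strain. In T315I, drpr and the class C genes Sr-CI, Sr-CIII and Sr-CIV rose between 2.21-fold and 4.70-fold, and emp fell, at 0.261 times its control level. In p210 the same comparison gave rises of 2.13-fold to 5.12-fold for these 4 genes, a smaller rise of pes (1.43-fold), and emp at 0.197 times its control level. Eater and crq, both abundant, did not pass the test in either transgene group. The p210 and T315I comparisons share the 3 control libraries, so their results are not independent of each other.

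Of the 9 genes 8 were tested, since Sr-CII had too few counts for the filter. With p-values of edgeR's quasi-likelihood F test adjusted over 9978 genes (Benjamini-Hochberg, threshold 0.05), 4 rose and 1 fell in T315I, and 5 rose and 1 fell in p210. Of all tested genes, 20.5% were higher and 28.7% lower in T315I, and 26.9% were higher and 30.3% lower in p210 (49.3% and 57.1% in either direction). The 4 genes drpr, Sr-CI, Sr-CIII and Sr-CIV rose by at least 2-fold in both, as did 6.41% of all tested genes in T315I and 8.53% in p210, and emp fell by at least 2-fold, as did 24.9% and 26.6%. The median log2 fold change of the 8 genes was 0.78 in T315I and 0.81 in p210, beside -0.02 and 0.05 over all tested genes. Libraries of T315I and control did not overlap in 6 of the 8 tested genes (5 higher and 1 lower). Over all tested genes this held for 30.3% higher and 27.8% lower, 58.2% in all. Libraries of p210 and control did not overlap in 6 of the 8 either (5 higher and 1 lower), against 31.2% higher and 30.4% lower, 61.6% in all. In bulk RNA, fewer cells of a type and less RNA per cell cannot be told apart.

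**Figure D1:**
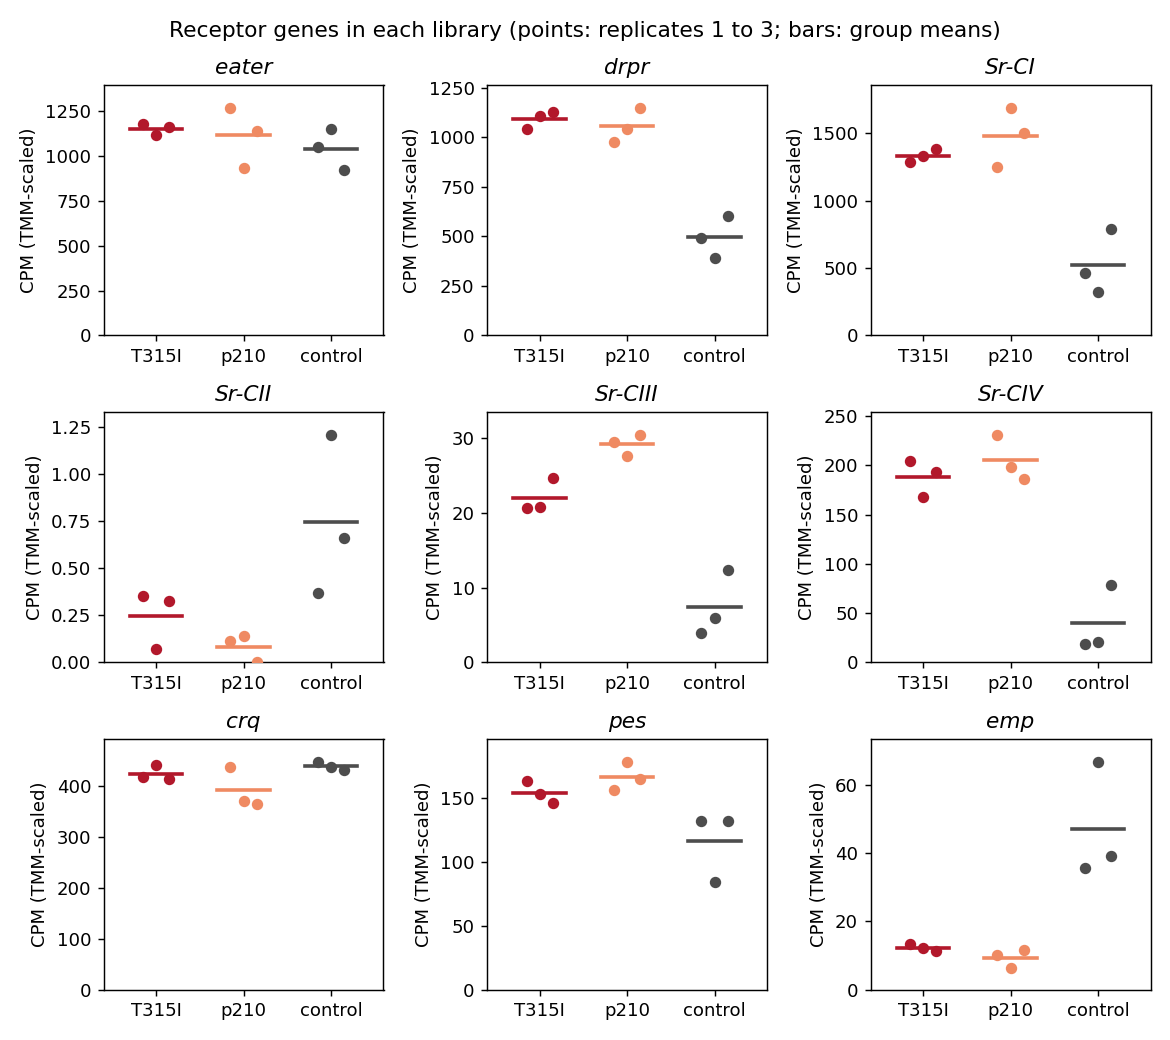
Level of each receptor gene in TMM-scaled CPM (vertical axes, each from 0) in the T315I, p210 and control libraries. Points are replicates 1 to 3 from left to right and bars are group means (n = 3). drpr, Sr-CI, Sr-CIII, Sr-CIV and pes lie above every control library in both transgene groups, Sr-CII and emp below, while the groups of eater and crq overlap.

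**Figure D2:**
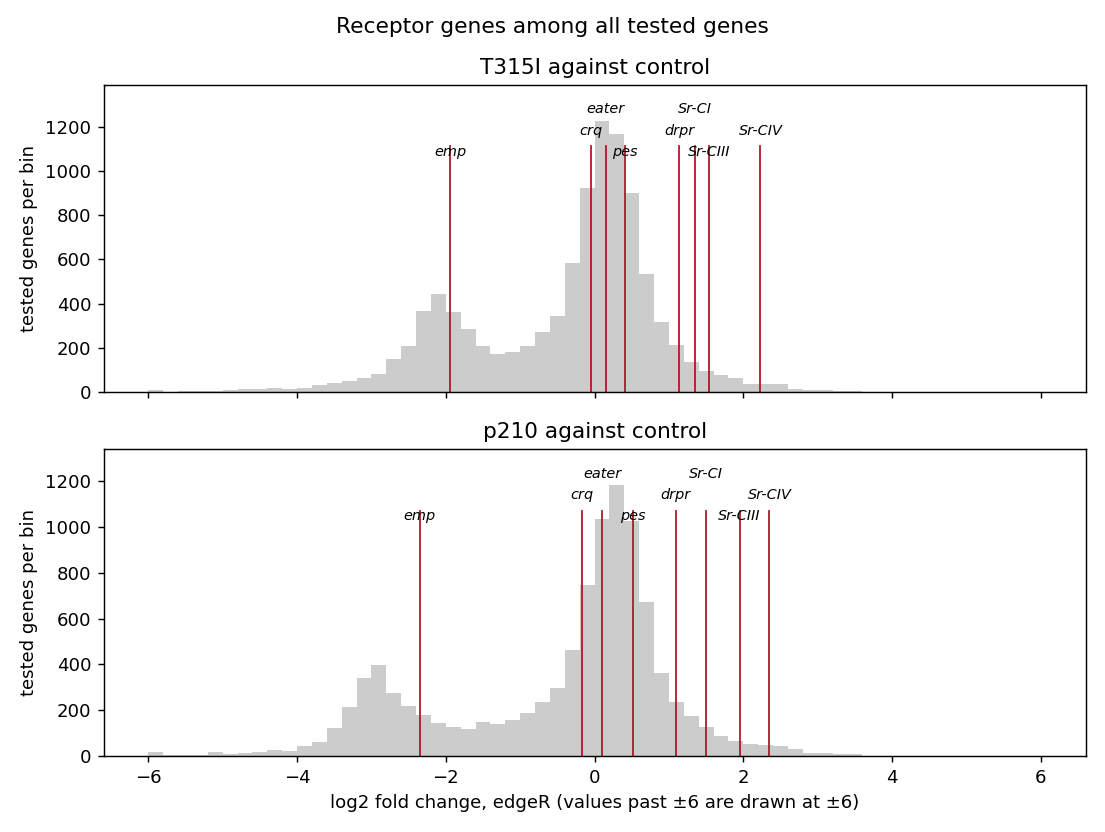
Distribution of log2 fold changes over all 9978 tested genes (grey, bins of 0.2) for T315I against control and p210 against control, with the 8 tested receptor genes as red lines. Sr-CIV lies at percentile 98.8 in T315I and 98.6 in p210. Emp lies at -1.94 in T315I, beside the lower peak, and at -2.35 in p210, between the lower peak and the trough.

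Eater did not differ between the groups beyond the spread of its libraries. The gene (FBgn0243514, chromosome 3R, 27095867 to 27099679, minus strand, build dm6) had 1180, 1120 and 1160 CPM in T315I, 1270, 935 and 1140 CPM in p210, and 1050, 1150 and 925 CPM in the control. The 3 groups overlapped. Its log2 fold change was 0.15 ± 0.15 (SE) in T315I (edgeR adjusted p = 0.437) and 0.10 ± 0.15 in p210 (edgeR adjusted p = 0.587). The 95% intervals of the change ran from 0.877-fold to 1.39-fold in T315I and from 0.853-fold to 1.35-fold in p210, so that a doubling lies outside both. With libraries scaled to the 10 plasmatocyte markers, none of them among the 9 receptors, the sign turned, to -0.22 in T315I and -0.26 in p210, without passing the test. This scaling takes up the change of Ppn, which was itself called higher (1.54 ± 0.31 in T315I and 1.7 ± 0.32 in p210). As a ratio to counts of Hml, a clotting gene that marks plasmatocytes, eater stood at 7.21 to 10.1% in T315I, 6.64 to 14.5% in p210 and 7.95 to 9.84% in the control.

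Draper RNA was about 2 times as high in the transgene groups as in the control. The gene drpr (FBgn0027594, chromosome 3L, 1715595 to 1731107, minus strand) had 1040, 1110 and 1130 CPM in T315I, 979, 1040 and 1150 CPM in p210, and 494, 391 and 603 CPM in the control. Every transgene library was above every control library, and the highest control library was replicate 3. This gave a log2 fold change of 1.14 ± 0.17 in T315I (edgeR adjusted p = 0.00273) and 1.09 ± 0.17 in p210 (edgeR adjusted p = 0.00145). Scaled to plasmatocyte markers it was 0.79 and 0.71, past the threshold in both. Within libraries, drpr counts were 88.6 to 99.3% of eater counts in T315I, 77.1 to 111% in p210 and 33.8 to 65.2% in the control. These ratios did not overlap with the control, and an exact permutation test gave p = 0.1 for each transgene group (two-sided, n = 3 each), the smallest p that 3 against 3 libraries allow. Against Hml, drpr counts were 7.03 to 10% in T315I, 7.28 to 11.1% in p210 and 3.12 to 5.18% in the control.

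The class C genes span a wide range of levels. Sr-CIII (chromosome 2L, 4120343 to 4121627) and Sr-CI (4121702 to 4124153) lie on the plus strand with 74 bases between them, and Sr-CIV lies elsewhere on 2L (3522521 to 3524056, minus strand). Sr-CI (FBgn0014033), whose product binds bacteria, had 1290, 1330 and 1380 CPM in T315I, 1250, 1690 and 1500 CPM in p210, and 461, 318 and 792 CPM in the control. The groups did not overlap, and control replicate 3 was again nearest to the transgene libraries. For Sr-CI the log2 fold change was 1.35 ± 0.29 in T315I (edgeR adjusted p = 0.00677) and 1.5 ± 0.29 in p210 (edgeR adjusted p = 0.00256).

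Of the tested receptors Sr-CIV (FBgn0031547) showed the largest rise in both comparisons. It had 204, 168 and 193 CPM in T315I, 231, 198 and 186 CPM in p210, and 19.2, 21.0 and 78.6 CPM in the control. Control replicate 3 stood well above the other control libraries, yet lay below every transgene library. Sr-CIV rose by 2.23 ± 0.47 in T315I (edgeR adjusted p = 0.00645) and 2.35 ± 0.47 in p210 (edgeR adjusted p = 0.00294), and without control replicate 3 it was 3.23 and 3.31. Sr-CIV counts amounted to 12.6 to 15.8% of Sr-CI counts in T315I, 11.7 to 18.5% in p210 and 4.16 to 9.92% in the control (exact permutation p = 0.1 for each transgene group against the control, the smallest possible).

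Sr-CIII, the upstream neighbour of Sr-CI, (FBgn0020376) was at a far lower level, also per length. It had 20.6, 20.7 and 24.7 CPM in T315I, 29.4, 27.6 and 30.4 CPM in p210, and 3.88, 5.96 and 12.3 CPM in the control. The groups did not overlap, and control replicate 3 was again the highest of its group. Its rise on the log2 scale was 1.54 ± 0.33 in T315I (edgeR adjusted p = 0.00710) and 1.95 ± 0.34 in p210 (edgeR adjusted p = 0.00182), or 2.14 and 2.50 without control replicate 3. Its counts were 1.55 to 1.79% of those of Sr-CI in T315I, 1.63 to 2.36% in p210 and 0.841 to 1.87% in the control. The ratios overlapped between transgene groups and control (exact permutation p = 0.8 for T315I and p = 0.2 for p210), and a change in their proportion was not detected with 3 libraries a group, where the smallest possible p is 0.1.

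Sr-CII (FBgn0020377, chromosome 2R, 12208893 to 12212155, minus strand) was near the limit of detection. It had 5, 1 and 5 counts in T315I, 2, 2 and 0 in p210, and 2, 11 and 7 in the control, despite the lower depth of the control. Its CPM were at most 0.353 in T315I and 0.142 in p210, against at least 0.369 in the control. This lowest control value rests on 2 counts and lies below that library's limit of 0.556 CPM, so the lack of overlap is not read as a difference. In a fit without the filter on low counts, its log2 fold change was -1.51 ± 0.79 in T315I (edgeR adjusted p = 0.156) and -2.95 ± 0.90 in p210 (edgeR adjusted p = 0.0190). With 0 to 11 counts a library, the size of this difference depends on few reads.

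Lamellocyte markers were higher in the transgene groups, as were Sr-CI, Sr-CIII, Sr-CIV and drpr, and among the controls all of these were highest in replicate 3. That library also had the lowest fat body, muscle and cuticle sums of the control. Within both transgene groups the lamellocyte sum was lowest in replicate 1 (16800 CPM in T315I and 15700 CPM in p210). There Sr-CIV was at its highest (204 CPM in T315I and 231 CPM in p210). Sr-CI (1290 and 1250 CPM) and drpr (1040 and 979 CPM) were at their lowest in these libraries. Sr-CIII was lowest in replicate 1 in T315I (20.6 CPM) but in replicate 2 in p210 (27.6 CPM). Of 9 lamellocyte markers 7 were tested and 6 were higher in T315I and 6 in p210, with a median log2 fold change of 2.1 in both. Of 10 plasmatocyte markers 3 were higher and 2 lower in T315I, and 3 higher and 2 lower in p210, with medians of -0.01 and 0.06. Of all tested genes 20.5% were called higher and 28.7% lower in T315I, and 26.9% and 30.3% in p210, and the plasmatocyte count is near these shares. The part of these markers in the receptor results was not tested.

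The class B genes did not move together. Croquemort RNA (crq, FBgn0015924, chromosome 2L, 448254 to 453024, minus strand) was at 418, 443 and 415 CPM in T315I, 439, 372 and 365 CPM in p210, and 448, 438 and 433 CPM in the control. The groups overlapped, and the control libraries lay close together, with a coefficient of variation of 1.68%. Its log2 fold change was -0.05 ± 0.12 in T315I (edgeR adjusted p = 0.754) and -0.17 ± 0.12 in p210 (edgeR adjusted p = 0.246). The 95% interval ran from 0.807-fold to 1.16-fold in T315I and from 0.747-fold to 1.06-fold in p210. In p210 a lower level of crq was called by DESeq2 (-0.21, adjusted p = 0.0462) and with the filter of 5 CPM (edgeR, -0.36, adjusted p = 0.0157). An exonic stretch of 448 bases of crq overlaps the gene ex on the other strand, and ex rose by 1.04 ± 0.23 in T315I and 1.19 ± 0.23 in p210, so the assignment of reads there is uncertain.

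Peste (pes, FBgn0031969, chromosome 2L, 7986786 to 7994184, minus strand) had 163, 153 and 146 CPM in T315I, 156, 178 and 165 CPM in p210, and 132, 84.3 and 132 CPM in the control. All transgene libraries were above the controls, of which replicate 2 was the lowest. On the log2 scale pes differed by 0.41 ± 0.17 in T315I (edgeR adjusted p = 0.0703) and 0.52 ± 0.17 in p210 (edgeR adjusted p = 0.0251). Its call depended on single libraries, the scaling, the filter and the groups in the fit. In T315I it passed without control replicate 1 (0.57, edgeR adjusted p = 0.0297) or control replicate 3 (0.52, edgeR adjusted p = 0.0422). In p210 it was lost without p210 replicate 2 (0.49, edgeR adjusted p = 0.0853) or p210 replicate 3 (0.53, edgeR adjusted p = 0.0612), and was 0.14 when scaled to plasmatocyte markers (edgeR adjusted p = 0.710). It was also lost with upper-quartile scaling (0.37, edgeR adjusted p = 0.0988), with the filter of 5 CPM (0.34, edgeR adjusted p = 0.107) and in the fit of p210 and control alone (0.46, edgeR adjusted p = 0.0976).

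The gene emp (FBgn0010435, chromosome 2R, 24976456 to 24986070, minus strand) fell in both transgene groups. It had 13.4, 12.2 and 11.4 CPM in T315I, 10.1, 6.23 and 11.6 CPM in p210, and 35.6, 66.7 and 39.2 CPM in the control. No transgene library reached the lowest control library. The fitted log2 fold change was -1.94 ± 0.29 in T315I (edgeR adjusted p = 0.00293) and -2.35 ± 0.29 in p210 (edgeR adjusted p = 0.000952). Markers of fat body, muscle and cuticle were also lower in the transgene groups. Among the control libraries the fat body sum was highest in replicate 1 (98300 CPM), where emp was lowest. The muscle sums were 2910, 2920 and 1310 CPM in control replicates 1 to 3. The cuticle sums there were 192, 193 and 61.5 CPM, and emp was highest in replicate 2. Lsp1beta, a larval serum protein gene of the fat body, averaged 3200 ± 850 CPM in T315I, 1530 ± 166 CPM in p210 and 17600 ± 6980 CPM in the control, and Mhc, the muscle myosin heavy chain gene, 45.4 ± 8.4, 35.7 ± 2.89 and 331 ± 146 CPM (SD, n = 3 each). Over all tested genes, with medians of -0.02 and 0.05, 28.7% were called lower in T315I and 30.3% in p210. Of 8 fat body markers 7 fell in T315I and 8 in p210, with medians of -2.75 and -3.74. All 9 muscle markers fell in both, with medians of -2.87 and -3.27. Of 7 cuticle markers 5 were tested and fell in both, with medians of -3.57 and -4.26. The part of those tissues in the fall of emp was not tested.

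**Figure D3:**
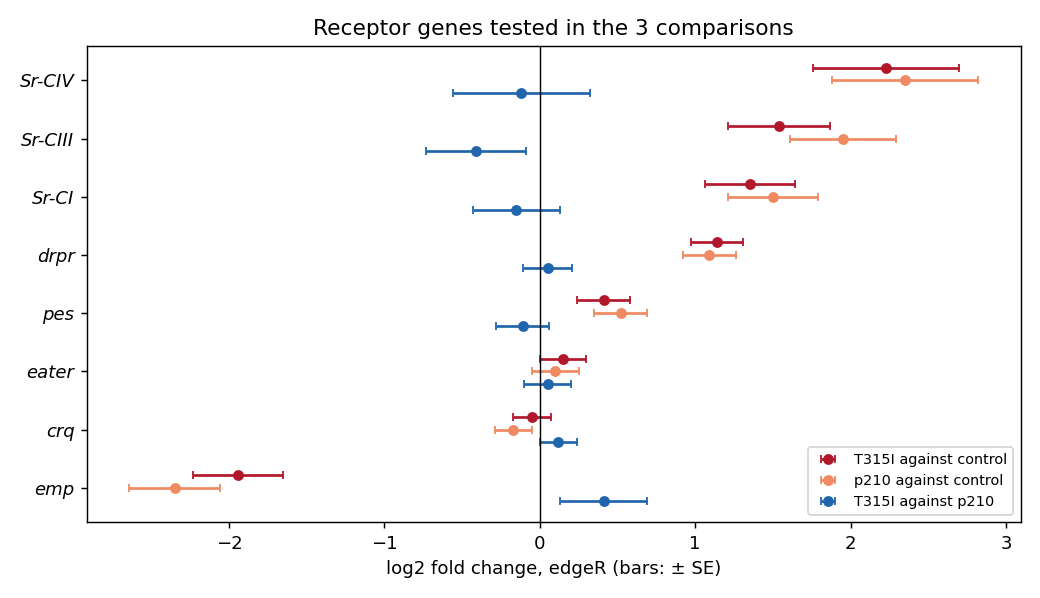
Log2 fold changes of the 8 tested receptor genes with their SE (horizontal bars) for T315I against control, p210 against control and T315I against p210. Sr-CIV, Sr-CIII, Sr-CI and drpr lie to the right of 0 and emp to the left in both comparisons with the control, and the T315I against p210 values lie between -0.41 and 0.41.

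The next question was whether the imatinib-resistant form differed from p210. No receptor passed the test in T315I against p210, in which edgeR called 1 of 9978 genes (0.01%, lower in T315I, and 0 higher). At an unadjusted p under 0.05 there were 0 of the 8 receptors and 348 of all genes, and DESeq2 and limma-voom also called 0 receptors. Sr-CIII, at 20.6 to 24.7 CPM in T315I and 27.6 to 30.4 CPM in p210, was the only one of the 9 whose libraries did not overlap, as was the case for 16.7% of all tested genes (9.57% higher and 7.09% lower in T315I). Its log2 fold change was -0.41 ± 0.32 (edgeR adjusted p = 0.999), with a 95% interval from 0.460-fold to 1.23-fold. Emp had the same size of difference with the opposite sign, 0.41 ± 0.28, with overlapping libraries. For eater, drpr and crq the intervals were 0.824-fold to 1.30-fold, 0.807-fold to 1.34-fold and 0.908-fold to 1.30-fold, and for pes 0.712-fold to 1.20-fold. For Sr-CI the interval was 0.582-fold to 1.40-fold and for Sr-CIV 0.460-fold to 1.84-fold. These intervals use a spread that includes the control libraries. The biological coefficient of variation was 0.131 in T315I, 0.199 in p210 and 0.401 in the control.

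Levels can be compared between the genes only per length, here as CPM per kb of annotated exon. In T315I the order was Sr-CI (605 ± 20.4, SD, n = 3), eater (349 ± 8.97), drpr (230 ± 9.52), crq (149 ± 5.40), Sr-CIV (135 ± 13.3), pes (40.0 ± 2.12), Sr-CIII (18.8 ± 2.00), emp (3.50 ± 0.294) and Sr-CII (0.105 ± 0.0659). Only the neighbours crq and Sr-CIV overlapped between libraries. In p210 the order per kb of exon was Sr-CI (671 ± 100), eater (338 ± 51.3), drpr (222 ± 18.2), Sr-CIV (147 ± 16.7), crq (138 ± 14.5), pes (43.3 ± 2.83), Sr-CIII (24.9 ± 1.23), emp (2.64 ± 0.781) and Sr-CII (0.0358 ± 0.0316), where again only Sr-CIV and crq overlapped. The control order differed. Eater led (316 ± 34.8 CPM per kb of exon), followed by Sr-CI (238 ± 110), crq (154 ± 2.59), drpr (104 ± 22.3), pes (30.2 ± 7.16), Sr-CIV (28.5 ± 24.3), emp (13.4 ± 4.82), Sr-CIII (6.32 ± 3.76) and Sr-CII (0.316 ± 0.181). There eater and Sr-CI, Sr-CI and crq, pes and Sr-CIV, Sr-CIV and emp, and emp and Sr-CIII overlapped. Counting appears to have been over whole gene spans, though the sources used here do not state this. The length that yields reads in total RNA is therefore not known. Per kb of span free of other genes, drpr came after crq and Sr-CIV in T315I and after Sr-CIV in p210. On that scale Sr-CIII also came before pes in p210 (22.7 against 22.5 CPM per kb), and in the control Sr-CIV came before pes and Sr-CIII before emp.

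**Figure D4:**
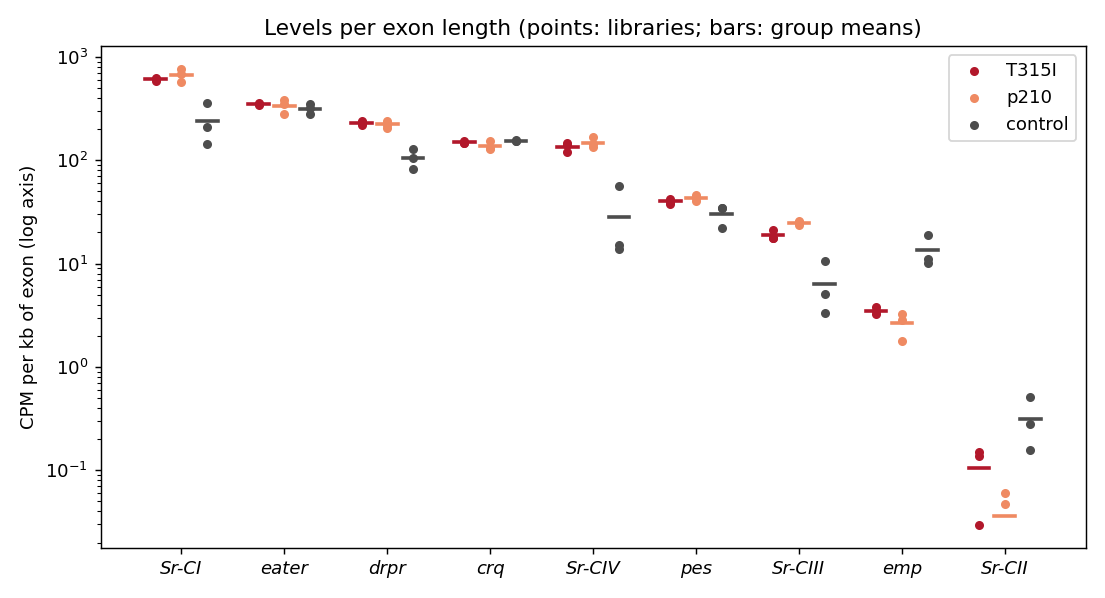
Level of each receptor gene per kb of exon (CPM per kb, log axis) in T315I, p210 and control libraries, with points for libraries and bars for group means. The 9 genes cover several orders of magnitude, and Sr-CI is above eater in the transgene groups, while the 2 overlap in the control. Sr-CII in p210 replicate 3, at 0, is not drawn.

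The 9 receptors together made up 0.425 to 0.442% of all counts in T315I, 0.420 to 0.429% in p210 and 0.265 to 0.323% in the control. Relative to the summed plasmatocyte markers, they stood at 9.59 to 12.1% in T315I, 9.35 to 14.1% in p210 and 8.41 to 9.33% in the control. That sum includes Ppn, which was itself called higher in both transgene groups.  Against the plasmatocyte markers, eater stood at 2.93 ± 0.412% in T315I, 2.84 ± 1.1% in p210 and 3.42 ± 0.599% in the control (SD, n = 3), and Sr-CI at 3.38 ± 0.364%, 3.62 ± 0.488% and 1.68 ± 0.691%.

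The genes whose pattern over the 9 libraries was most like that of drpr, by Pearson's r of log2(CPM + 1), were sano (0.994), PolA1 (0.993) and jumu (0.993). PolA1 encodes the catalytic subunit of DNA polymerase alpha and jumu a forkhead transcription factor, with mean levels of 62.4 CPM for PolA1 and 164 CPM for jumu in T315I, 65.1 and 166 CPM in p210, and 26.7 and 80.7 CPM in the control. For crq they were Sply (0.911), GC1 (0.887) and Rpn13 (0.884), and for eater MtnB (0.840), Prosalpha5 (0.801) and Mvl (0.788). These values describe 9 libraries that share groups and depth, out of 4486 genes searched, and carry no test.

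Genes that act with these receptors were followed in 4 further lists. Of 17 genes of the Draper engulfment pathway 14 were tested, of which 10 rose and none fell in T315I, and 10 rose and none fell in p210, with medians of 0.55 and 0.64, beside -0.02 and 0.05 over all tested genes, of which 20.5% were called higher in T315I and 26.9% in p210. With upper-quartile scaling or DESeq2, 1 fell in T315I, and with the filter of 5 CPM, 1 in T315I and 2 in p210. The exchange factor subunit gene mbc, which acts with Ced-12 on Rac, rose by 1.78 ± 0.3 in T315I and 1.89 ± 0.3 in p210 on the log2 scale. The calcium entry genes Orai (0.96 ± 0.2 and 1.18 ± 0.2) and Stim (0.77 ± 0.14 and 0.79 ± 0.14) and the Draper adaptor gene ced-6 (0.59 ± 0.13 and 0.74 ± 0.13) rose as well. The kinase gene Shark, which binds Draper directly, was at 0.17 ± 0.12 and 0.23 ± 0.12 and did not pass. Scaled to the plasmatocyte markers, 2 of the pathway genes were called higher in T315I and 3 in p210. On that scaling 3607 of all 9978 tested genes were called in T315I, 13.3% of these higher. In p210 it was 3860 genes, 16% of these higher. In T315I against p210 none was called, and the most abundant, mbc and ced-6, were at -0.11 ± 0.29 and -0.15 ± 0.13.

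Of 11 other class B genes 8 were tested, and 5 fell and none rose in T315I and in p210, with medians of -1.71 and -2.23. The 5 were not all the same, as ninaD was called in T315I only and CG10345 in p210 only. Over all tested genes, 28.7% were called lower in T315I and 30.3% in p210, with medians of -0.02 and 0.05. Among them santa-maria, a carotenoid uptake gene of the visual system, was at -2.77 ± 0.27 in T315I and -3.28 ± 0.28 in p210, dsb at -2.77 ± 0.45 and -2.76 ± 0.45, and CG2736 at -2.19 ± 0.48 and -4.27 ± 0.54. CG3829, which shares 27 exonic bases with emp on the other strand, fell (-1.28 ± 0.26 in T315I and -1.69 ± 0.26 in p210). Markers of fat body, muscle and cuticle, given above, also fell in both transgene groups. The part of those tissues in the fall of these class B genes was not tested. In T315I against p210 the most abundant, CG40006 and CG3829, were at -0.37 ± 0.31 and 0.41 ± 0.26. The largest differences of the list were those of CG2736 (2.08 ± 0.5) and ninaD (-1.61 ± 0.59). None of the list was called by edgeR, while DESeq2 called 1 of the list higher.

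Other genes of the Nimrod family, to which Eater belongs, and further phagocytic receptor genes moved in both directions. Of 13 tested, 4 rose and 4 fell in T315I, and 5 rose and 5 fell in p210, with medians of 0.07 and 0.09. Over all tested genes 20.5% were called higher and 28.7% lower in T315I, and 26.9% and 30.3% in p210, so with 13 genes these counts are not far from the background. NimC1, a receptor for bacteria and a plasmatocyte marker, rose by 1.37 ± 0.27 in T315I and 1.61 ± 0.27 in p210, and NimB5 by 1.64 ± 0.24 and 1.88 ± 0.24. NimC2 fell (-1.61 ± 0.28 and -2.51 ± 0.29), as did NimB1 (-0.92 ± 0.15 and -0.73 ± 0.15). Scaled to plasmatocyte markers, whose sum includes NimC1, 2 were called higher in T315I and 2 in p210. Of all 9978 tested genes, 3607 were called on that scaling in T315I (13.3% of these higher) and 3860 in p210 (16% of these higher). In T315I against p210, NimC1 and NimB4 were at -0.24 ± 0.27 and -0.02 ± 0.16, neither called.

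Of 18 genes of phagosome maturation and degradation 17 were tested, and 7 rose in T315I and 10 in p210, with none lower and medians of 0.29 and 0.42. Of all tested genes 20.5% were called higher in T315I and 26.9% in p210. With upper-quartile scaling or the filter of 5 CPM, 4 rose in T315I. Cp1, the cathepsin L gene, had the largest change (1.78 ± 0.32 and 1.83 ± 0.32), followed by the late endosome gene Rab7 (0.88 ± 0.16 and 0.95 ± 0.16) and Rab2 (0.82 ± 0.15 and 0.92 ± 0.15). Vps16A rose by 0.50 ± 0.12 in T315I and 0.49 ± 0.12 in p210. For lt, of the same tethering complex, the log2 fold change was 0.27 ± 0.10 in T315I, which did not pass (edgeR adjusted p = 0.0525), and 0.44 ± 0.10 in p210, which did (edgeR adjusted p = 0.00585). With scaling to plasmatocyte markers 1 gene was called higher in T315I and 1 in p210. Of all 9978 tested genes, 3607 were then called in T315I (13.3% of these higher) and 3860 in p210 (16% of these higher). In T315I against p210, Cp1 and the cathepsin D gene cathD were at -0.05 ± 0.31 and 0.15 ± 0.17, neither called.

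**Figure D5:**
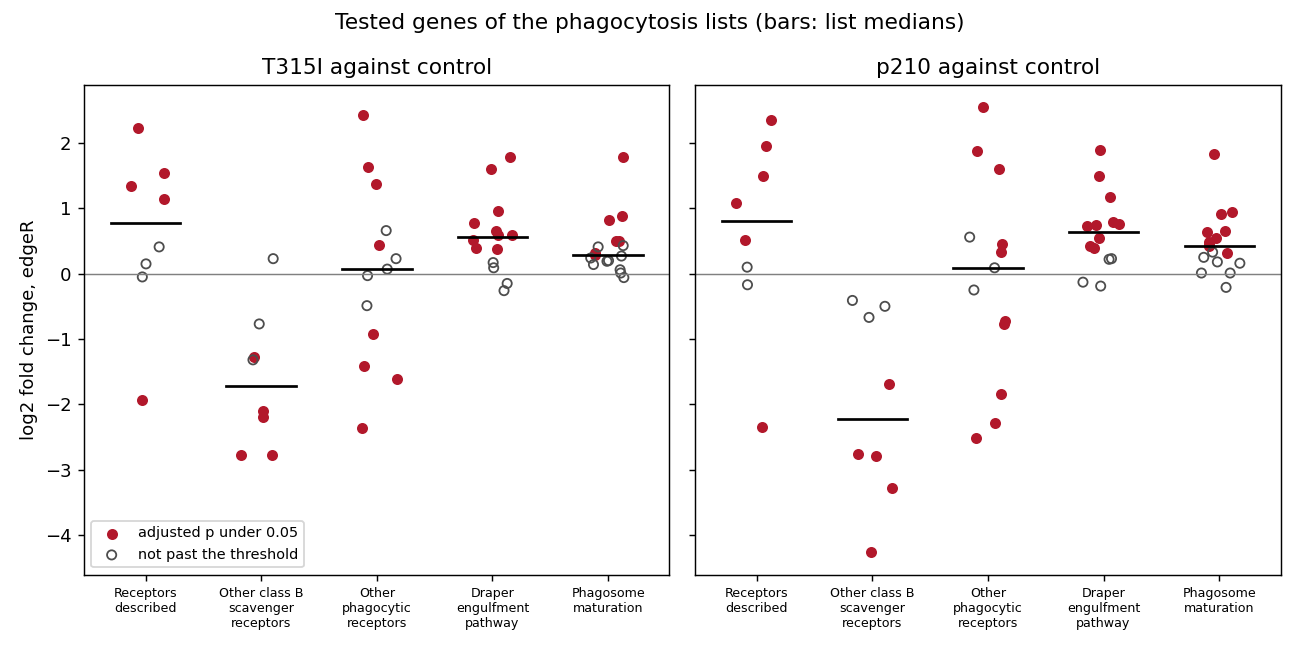
Log2 fold changes (vertical axis) of tested genes in the receptors described and in 4 lists of related genes, for T315I against control and p210 against control. Filled points have an adjusted p under 0.05 and bars are list medians; other class B genes lie mostly below 0 (medians -1.71 and -2.23) and Draper pathway genes mostly above (0.55 and 0.64).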

How the data were processed

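Raw counts per gene, 1 column per library, were used as deposited; per the submitters' processing notes they were made with FastQC 0.11.8, HISAT2 2.1.0 and featureCounts 2.0.1 on build dm6. The sources used here name neither the annotation nor the strand setting. Of 17874 symbols 17554 matched BDGP6.54 (the same assembly), the source of coordinates and lengths. Of protein-coding genes whose span other genes cover but whose exons are free, 1215 of 1215 were at 0, against 306 of 7191 with a free span.

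In R 4.3.3, edgeR 4.0.16 (filterByExpr, TMM, robust quasi-likelihood, 1 mean per group, all 9 libraries) tested 9978 genes two-sided, with Benjamini-Hochberg adjusted p under 0.05. SE are the log2 fold change over the square root of F, and are approximate. Replicates are biological per the labels, and no 2 columns were identical. On simulated data the fit recovered 43% of 2-fold changes in T315I against control, 44% in p210 against control and 34% in T315I against p210. Of 4-fold changes it recovered 70%, 74% and 74%. Alternatives were RLE, upper-quartile and plasmatocyte-marker scaling, DESeq2 1.42.0, limma-voom (limma 3.58.1), 2 filters, a replicate block, 2-group fits and each library left out. All 9 receptors, up to 4 called genes per list by adjusted p (the 2 most abundant if none) and the 3 most alike genes were named; Shark and ex were named after their values were seen. Receptors and lists were chosen with earlier results of these data known.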

Additional observations from a re-analysis of the deposited data

How the results depend on the processing

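Calls of drpr, Sr-CI, Sr-CIII, Sr-CIV and emp held in both comparisons with the control in all 9 other settings and all 9 fits without 1 library, with log2 fold changes of drpr from 0.71 to 1.31, of Sr-CI from 1.01 to 1.89, of Sr-CIII from 1.20 to 2.50, of Sr-CIV from 1.91 to 3.31 and of emp from -2.74 to -1.60. Of all genes called, the higher share was 41.7% in T315I and 47.0% in p210, but 13.3% and 16% with plasmatocyte-marker scaling, where the median log2 fold change was -0.37 and -0.32, and 34.5% and 36% with upper-quartile scaling. The marker sum used for scaling includes Ppn, itself called higher in both transgene groups. Signs turned only where no call was made: eater in p210 was at -0.05 (upper-quartile), -0.26 (markers), -0.10 (filter of 5 CPM) and -0.02 (without control replicate 3, in a range from -0.02 to 0.24 without 1 library), and in T315I at -0.22 (markers); crq in T315I was at 0.01 (no filter), 0 (without T315I replicate 3) and 0.03 (without control replicate 1, in a range from -0.06 to 0.03); in T315I against p210, drpr was at 0 without p210 replicate 1 (range 0 to 0.14) and eater at -0.06 without p210 replicate 2 (range -0.06 to 0.15). The cause was not tested.

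The filter of 5 CPM left 3671 of 7639 genes called in p210 against control, in place of 5700. In T315I against p210, 1 gene was called, against 6 with marker scaling, 35 with DESeq2, 2 with no filter and 6 in the 2-group fit, and 0 to 4 without 1 library; 0 receptors were called in any of these. Receptors called without 1 library numbered 5 to 6 in T315I, the sixth being pes, and 6 to 7 in p210, with Sr-CII called in p210 wherever it entered the test and never in T315I. Same-numbered libraries did not deviate together (r from -0.378 to 0.190), so the numbers are not read as pairs; with the replicate block, 4125, 5299 and 1 genes and 5, 6 and 0 receptors were called in T315I against control, p210 against control and T315I against p210. Depth limits Sr-CII, with 0 to 11 counts a library.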

Other observations

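Log2 fold changes against the control had 2 peaks over all 9978 tested genes. In T315I the fullest bin lay between 0 and 0.2 (1226 genes) and a lower peak between -2.2 and -2.0 (444 genes), with 174 genes in the emptiest bin between them. In p210 the peaks lay between 0.2 and 0.4 (1182 genes) and between -3.0 and -2.8 (397 genes), with 118 in the emptiest bin. A log2 fold change of -1 or less was found for 27.7% of genes in T315I and 28.5% in p210. Emp, at -1.94 in T315I and -2.35 in p210, lay in this lower part, beside the lower peak in T315I and between peak and trough in p210, at percentiles 17.0 and 18.8, with crq at 48.4 and 41.4 and Sr-CIV at 98.8 and 98.6.

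The genes CG18171 and CG12035, which lie within the span of drpr without sharing exon bases with it, had 0 counts in all 9 libraries. Of the drpr span 74.79% is free of other genes. Of the gene lists used, 13 genes were at 0 everywhere and all 13 had no free span, among them the engulfment receptor gene NimC4 and Rac2.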
